A study of Arabidopsis thaliana with 4 samples.

Results

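The SAUR (SMALL AUXIN UP RNA) genes examined here were 54 loci of Arabidopsis thaliana, chosen as a fixed list of locus identifiers, and all 54 were present among the 32678 loci of the deposited table. All 54 carry the annotation SAUR-like auxin-responsive protein family in RefSeq, which gives it to 24 further loci of the table. Of the 54, 37 lay in 9 tandem blocks of neighbouring loci (locus numbers within 100 of the next) and 17 stood alone. RNA was sequenced from whole plants of the genotypes 35S:TEM1 and WT, with 2 samples of each. Every sample pooled 20 plants that were 10 days old, kept in LD at 22 °C and taken at ZT18, so age, growth and hour of harvest were shared by both genotypes. The line 35S:TEM1 overexpresses TEM1 (TEMPRANILLO 1), a RAV-family transcription factor known as a repressor of flowering, and is named for the 35S promoter of cauliflower mosaic virus, which is active in most plant tissues. How many independent lines the 35S:TEM1 plants came from is not given in the sources used here, and nothing states that the 2 pools of a genotype came from separate growth rounds. The p-values therefore measure the spread between these pools.

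SAUR genes are short, mostly intronless and among the earliest transcripts to respond to auxin. The best studied SAUR proteins, those of the SAUR19 type, bind and inhibit PP2C.D phosphatases, which keeps plasma membrane proton pumps (the AHA family) active, acidifies the cell wall and lets cells expand. Other SAUR genes respond to light, brassinosteroid, temperature or abscisic acid, and many are transcribed in elongating hypocotyls, petioles and young leaves. In the RefSeq annotation 49 of the 54 had a single exon, the coding sequences ran from 261 to 573 bases, and the median exon length was 828.5 bases.

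TEM1 itself (AT1G25560) had an RPKM (reads per kilobase of gene and per M reads, M meaning units of 1e+06) of 784 and 827 in 35S:TEM1 and of 16.3 and 30.3 in WT, so both samples labelled 35S:TEM1 carried the excess transcript. The values do not separate transgene from endogenous TEM1 transcripts. The samples were scaled to an estimated 20.18 and 27.81 M reads in 35S:TEM1 and 30.43 and 24.14 M in WT. Among all 17746 tested genes 18.3% were higher in 35S:TEM1 and 7.37% lower (limma adjusted p under 0.05). Root markers were higher in 7 of 8 tested (10 listed), with summed RPKM of 423 and 419 in 35S:TEM1 plants against 298 and 241 in WT plants. Most of it was PYK10 (365 and 355 in 35S:TEM1 plants against 267 and 208 in WT plants). PRP3, EXPA7 and WER were under an RPKM of 1 in both WT samples. Only their 35S:TEM1 values brought them over the mean of 1 needed for testing, which favoured a positive difference. Of these PRP3 and EXPA7 are among the 7. Of 10 markers of the leaf epidermis and guard cells 3 were lower and 0 higher, with sums of 267 and 287 in 35S:TEM1 plants against 422 and 373 in WT plants. Most of that sum was PDF1 (178 and 205 in 35S:TEM1 plants against 308 and 279 in WT plants). MYB60, a marker of guard cells, had a positive difference (0.31) and did not pass. Of 5 mesophyll markers 3 were higher and the other 2 did not pass, with sums of 25200 and 30300 in 35S:TEM1 plants against 32900 and 34400 in WT plants. The 3 higher ones were LHCB genes, while RBCS1A and RBCS3B, which did not pass, carried the sum, with RBCS1A at 18700 and 22700 in 35S:TEM1 plants against 24600 and 25600 in WT plants. RHD6, a root hair factor, was listed at 0 in WT replicate 1, and no other marker was at 0 in any sample, so root and leaf were both present in every pool. The part of these shifts in the SAUR values below was not tested. In whole plants, fewer cells of a type and less RNA per cell cannot be told apart.

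In 35S:TEM1 plants 10 SAUR genes had lower transcript levels and 6 had higher ones. One gene, SAUR12, stood far from the rest, with a level 19.6 times that of WT. Differences are given as 35S:TEM1 minus WT of log2(RPKM + 1), with standard errors (SE) from limma, and they understate the change of genes with low RPKM. A gene is called higher or lower where limma's adjusted p, corrected over 17746 genes with a mean RPKM of at least 1, is under 0.05. Of the 54 members 36 reached that mean, and of these 6 were higher, 10 lower and 20 did not pass. The 16 of 36 members called compare with 25.7% of all tested genes that passed in either direction, 18.3% being higher and 7.37% lower. The list was chosen with earlier results of these data known, so the contrast is only descriptive. With 35S:TEM1 replicate 1 left out both counts of members fell, as did those over all tested genes. Without WT replicate 1 the count of lower members fell and that of higher members did not. Over all tested genes the count of higher ones then fell and that of lower ones did not. The median difference of the 36 was -0.44, against 0.12 for all tested genes. Negative differences were found in 24 of the 36, against 6051 of all 17746 tested genes. With every sample set to the same median, 6 members were higher and 13 lower, and with quantile normalization 4 were higher and 14 lower. The share of higher calls among all called genes was 71.3% as deposited, 44.1% with equal medians and 52.0% with quantile normalization. Among the members it was 37.5%, 31.6% and 22.2% in the same order. In 18 of the 36 both 35S:TEM1 samples lay below both WT samples, and in 8 both lay above, where the shares over all tested genes were 20.7% and 47.4%. The 10 lower members all lay in tandem blocks (28 tested there, 3 higher). Blocks were set by locus number and not by sequence. SAUR76 counts there only through SAUR70, which was not tested, lies on the opposite strand and is 42.3% identical in coding sequence. Among 8 tested genes that stand alone limma called 3 higher and 0 lower, SAUR41 having a negative difference at an unadjusted p of 0.0406.

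**Figure D1:**
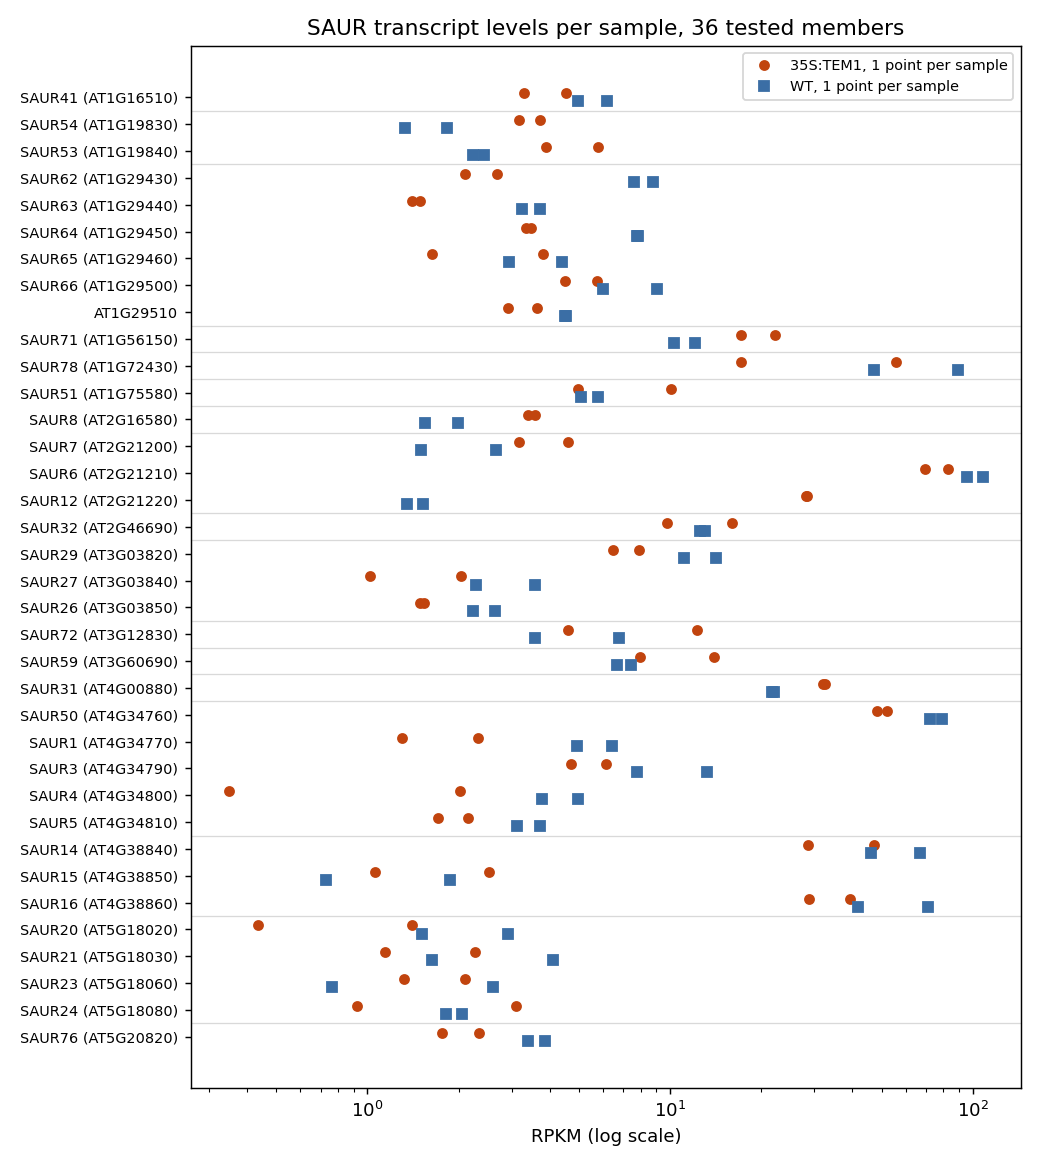
RPKM (log axis) of the 36 tested SAUR members in each of the 2 samples of 35S:TEM1 (circles) and of WT (squares), in order of locus number, with lines between separate blocks or single genes. The levels run from 0.348 (SAUR4, 35S:TEM1 replicate 1) to 108 (SAUR6, WT replicate 1), and SAUR12 shows the widest gap between genotypes.

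The family's RNA was concentrated in a few genes. By mean RPKM over the 4 samples, which is per length and so comparable between genes, SAUR6 had 89.0, SAUR50 62.9, SAUR78 52.4, SAUR14 47.2 and SAUR16 45.3. That order did not hold in each sample, since SAUR78 was at 17.2 in 35S:TEM1 replicate 1, under SAUR31 and SAUR12, and at 89.3 in WT replicate 2, above SAUR50. These 5 made up 53.9% and 55.5% of the summed member RPKM in the 35S:TEM1 samples, against 66.6% and 67.7% in WT. The summed RPKM of all 54 was 436 and 423 in 35S:TEM1 and 559 and 510 in WT, so the genotypes did not overlap. The gap came from those 5, of which SAUR6 and SAUR50 passed, while the other 49 summed to 201 and 188 in 35S:TEM1 and 187 and 165 in WT, with SAUR12 among them. Depth was thin for the weakest tested members. In estimated reads the lowest sample of a tested member held 5 reads, and 2 of the 36 had a sample under 10 (SAUR4 and SAUR20).

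The RPKM of SAUR12 (AT2G21220, chromosome 2) was 28.1 and 28.3 in 35S:TEM1 plants, against 1.35 and 1.53 in WT plants. The samples of each genotype lay close together and the genotypes were far apart, at 28.2 ± 0.12 and 1.44 ± 0.13 (SD, n = 2 each). The log2 difference was 3.58 ± 0.10 (SE, limma adjusted p = 4.74e-05). In estimated reads these levels stood for 469 and 651 reads in 35S:TEM1 and 34 and 31 in WT. Its 2 neighbours in the block did not share this rise. SAUR6 (AT2G21210) fell, with 83 and 69.5 in 35S:TEM1 plants against 108 and 95.9 in WT plants (-0.42, adjusted p = 0.041). It did not pass without 35S:TEM1 replicate 1 (-0.54), 35S:TEM1 replicate 2 (-0.29) or WT replicate 1 (-0.33), with no filter on low values and without limma's trend. SAUR7 (AT2G21200) had 3.16 and 4.59 in 35S:TEM1 plants against 2.66 and 1.5 in WT plants and did not pass (0.67, adjusted p = 0.0771), with 0.95 without WT replicate 1 (called higher, adjusted p = 0.0228), 0.40 without WT replicate 2 and 0.46 without 35S:TEM1 replicate 2. The annotated exons of SAUR6 and SAUR7 share bases on the same strand, 12.6% of SAUR6 and 19.6% of SAUR7, so reads in that stretch cannot be assigned.

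The closest relative of SAUR12 by coding sequence was SAUR16 (AT4G38860), identical at 85.5% of aligned positions. It was one of the abundant members and did not pass, with 39.4 and 28.7 in 35S:TEM1 plants against 71.3 and 41.8 in WT plants (-0.69 ± 0.26, adjusted p = 0.103). The genotypes did not overlap, and the difference of SAUR16 stayed negative with each sample left out. Its size varied, at -1.06 without WT replicate 2, -0.31 without WT replicate 1 and -0.46 without 35S:TEM1 replicate 2. SAUR50 (AT4G34760, 75.7% identical to SAUR12) fell, and SAUR8 (AT2G16580, 69.7%) rose, with 3.38 and 3.58 in 35S:TEM1 plants against 1.55 and 1.99 in WT plants (0.70 ± 0.14, adjusted p = 0.0151). The call for SAUR8 was lost without 35S:TEM1 replicate 1 (0.73, adjusted p = 0.07) and without 35S:TEM1 replicate 2 (0.67, adjusted p = 0.0838), and 12.1% of its exon lies under AT2G16575 of the opposite strand. No 50-base window of the SAUR12 or SAUR16 exons occurred a second time in the genome (0% of windows for each gene). SAUR16 and SAUR50 are known as light-induced genes of cotyledon opening.

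**Figure D2:**
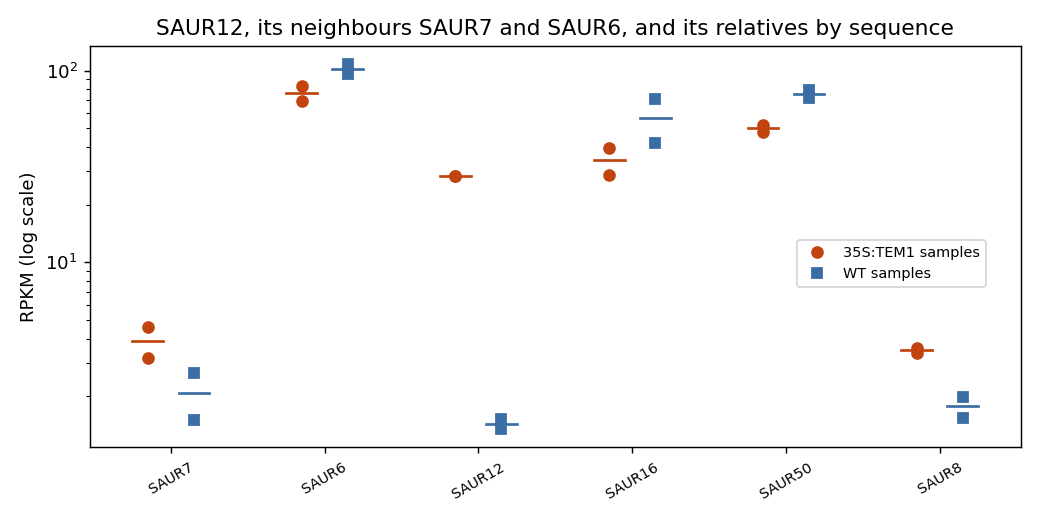
RPKM (log axis) per sample of SAUR12, its block neighbours SAUR7 and SAUR6, and its sequence relatives SAUR16, SAUR50 and SAUR8, with 35S:TEM1 (circles) left of WT (squares) and lines at the means of 2 samples. SAUR12 lies at 28.1 and 28.3 in 35S:TEM1 and at 1.35 and 1.53 in WT, while SAUR6, SAUR16 and SAUR50 lie lower in 35S:TEM1.

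SAUR12 and SAUR16 were alike in coding sequence but not in their difference between genotypes. The 250 bases upstream of their annotated gene starts are given 5′ to 3′ on the gene's strand from the RefSeq TAIR10.1 genome, in lower case. Capitals mark any match, on either strand, to the motifs TGTCTC and TGTCGG (auxin response elements), CACGTG (the G-box), CAACA and CACCTG (the elements bound by RAV proteins). The last base of each lies directly before the gene start.

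SAUR12 (chr2:9088976-9089225, plus strand): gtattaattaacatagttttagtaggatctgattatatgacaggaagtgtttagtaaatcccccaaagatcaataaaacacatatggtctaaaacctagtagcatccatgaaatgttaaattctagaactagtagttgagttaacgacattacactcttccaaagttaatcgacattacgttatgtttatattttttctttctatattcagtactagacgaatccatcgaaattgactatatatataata

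SAUR16 (chr4:18129987-18130236, plus strand): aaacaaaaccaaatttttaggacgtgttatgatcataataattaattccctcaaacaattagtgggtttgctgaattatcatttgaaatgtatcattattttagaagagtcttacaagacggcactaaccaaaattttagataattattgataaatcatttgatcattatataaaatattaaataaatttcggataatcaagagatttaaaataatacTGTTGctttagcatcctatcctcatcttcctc

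These windows were identical at 48.7% of aligned positions. The SAUR12 window held none of the 5 motifs, and that of SAUR16 held 1 CAACA. A match is a stretch of letters and not a bound site.

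The block of chromosome 1, SAUR61 to AT1G29510 (8 members, AT1G29420 to AT1G29510), held 3 genes that fell among 6 tested. All 6 differences were negative, from -1.44 to -0.37, and in SAUR65 the samples of the genotypes overlapped. Genes of this group, the SAUR63 subfamily, are known to promote elongation of hypocotyls and stamen filaments. SAUR62 (AT1G29430) had 2.67 and 2.1 in 35S:TEM1 plants, against 7.62 and 8.76 in WT plants. The genotypes were well apart, a difference of -1.44 ± 0.13 (adjusted p = 0.00141). SAUR63 (AT1G29440) had 1.4 and 1.49 in 35S:TEM1 plants against 3.71 and 3.23 in WT plants (-0.87 ± 0.13, adjusted p = 0.00631). SAUR64 (AT1G29450) had 3.34 and 3.47 in 35S:TEM1 plants against 7.84 and 7.77 in WT plants (-1.0 ± 0.10, adjusted p = 0.00178). For all 3 the WT mean was over 2 times that of 35S:TEM1, and each kept its call in every alternative in which it was tested.

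The other tested genes of the block had smaller differences and did not pass. SAUR66 (AT1G29500) had 5.75 and 4.5 in 35S:TEM1 plants against 9.08 and 6.01 in WT plants (-0.46, adjusted p = 0.133), with no overlap. Its difference was -0.73 without WT replicate 2 (called lower, adjusted p = 0.024) and -0.20 without WT replicate 1. AT1G29510 had 3.62 and 2.92 in 35S:TEM1 plants against 4.54 and 4.51 in WT plants (-0.38, adjusted p = 0.0762) and was called lower with equal sample medians (-0.53) and quantile normalization (-0.56). SAUR65 (AT1G29460) had 3.81 and 1.64 in 35S:TEM1 plants against 4.39 and 2.93 in WT plants (-0.37, adjusted p = 0.399), where the genotypes overlapped, and its difference was 0.07 without 35S:TEM1 replicate 2. Of the 2 untested genes, SAUR61 stayed between 0.104 and 0.18 in all samples, and AT1G29490 had 0.0752 and 0.0546 in 35S:TEM1 plants against 0.399 and 0.377 in WT plants, which is about 1 read in each 35S:TEM1 sample and 8 and 6 reads in WT. The names SAUR67 and SAUR68 are both attached to AT1G29510 in RefSeq, and SAUR68 also to AT1G29490, so these genes are given by locus. Reads of close copies are uncertain here. Of the 50-base windows in their exons, 23.2% in SAUR62, 27.1% in SAUR63, 33.9% in AT1G29510 and 0% in SAUR64 occur more than once in the genome. Of the SAUR63 exon 25.6% lies under AT1G29435 of the opposite strand.

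**Figure D3:**
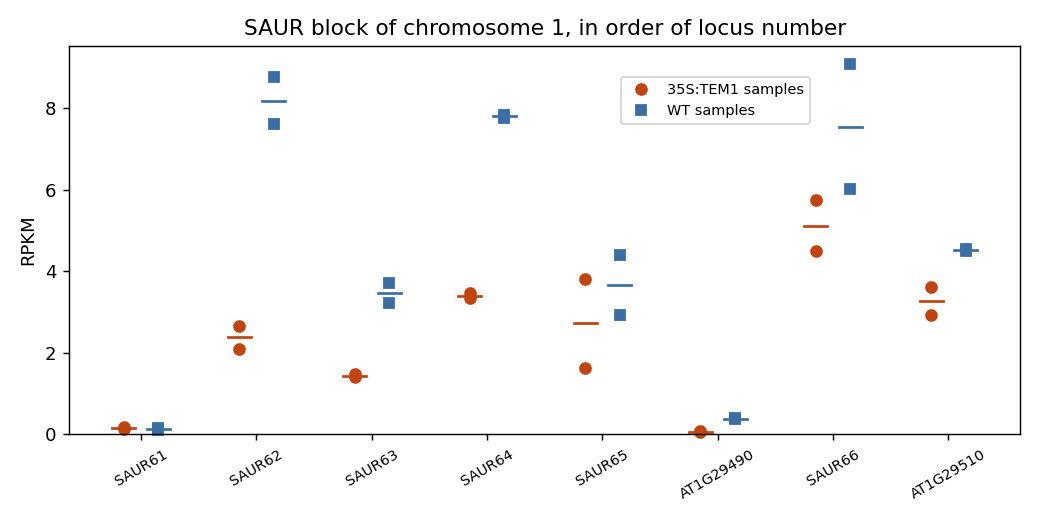
RPKM per sample of the 8 SAUR members of the chromosome 1 block in order of locus number, with 35S:TEM1 (circles) left of WT (squares) and lines at the means of 2 samples. SAUR62, SAUR63 and SAUR64 lie at 1.4 to 3.47 in 35S:TEM1 and at 3.23 to 8.76 in WT.

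Upstream windows of SAUR62 and SAUR64, which both fell, are shown in the same way.

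SAUR62 (chr1:10303419-10303668, minus strand): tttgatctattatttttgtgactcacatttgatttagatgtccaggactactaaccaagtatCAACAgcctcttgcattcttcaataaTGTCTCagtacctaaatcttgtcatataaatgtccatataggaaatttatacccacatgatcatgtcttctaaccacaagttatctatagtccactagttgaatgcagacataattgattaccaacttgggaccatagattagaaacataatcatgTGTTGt

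SAUR64 (chr1:10306596-10306845, minus strand): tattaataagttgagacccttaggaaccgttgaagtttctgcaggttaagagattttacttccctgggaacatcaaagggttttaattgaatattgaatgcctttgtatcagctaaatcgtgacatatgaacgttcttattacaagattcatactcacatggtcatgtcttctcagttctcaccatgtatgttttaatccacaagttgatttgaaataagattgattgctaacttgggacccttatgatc

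The windows of SAUR62 and SAUR64 were identical at 55.4% of aligned positions. SAUR62 held 2 CAACA matches and 1 TGTCTC, and SAUR64 none of the motifs, so the pair had no motif of the set in common. Among the 10 lower members 5 had CAACA, as had 3 of the 6 higher ones, against 47.4% of 27443 protein-coding genes with a window of the same length. CACCTG was found in 3 of the 54 members (1 higher, 1 lower and 1 untested), or 5.6%, against 2.6% of all windows. TGTCTC was found in 7 of 54 (13.0%, against 10.9%), TGTCGG in 2 (3.7%, against 4.2%) and CACGTG in 1 (1.9%, against 6.5%). None of these motifs contains another, but single matches can overlap by a few letters.

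On chromosome 4 the block from SAUR50 to SAUR5 (AT4G34760 to AT4G34810, 6 members) had the same direction throughout. All 5 tested genes had negative differences, from -1.40 to -0.59, and 4 passed. SAUR50, the second most abundant member, had 48.1 and 52 in 35S:TEM1 plants against 79.2 and 72.2 in WT plants (-0.59 ± 0.09, adjusted p = 0.00644). The genotypes did not overlap, and the call was lost only without 35S:TEM1 replicate 1 (-0.53, adjusted p = 0.0544). SAUR1 (AT4G34770) had 2.31 and 1.3 in 35S:TEM1 plants against 6.43 and 4.93 in WT plants (-1.27 ± 0.21, adjusted p = 0.00876) and kept its call in every alternative in which it was tested.

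SAUR4 (AT4G34800) had 0.348 and 2.02 in 35S:TEM1 and 4.96 and 3.78 in WT (-1.40 ± 0.36, adjusted p = 0.0366). Its 2 samples of 35S:TEM1 stood far apart, at about 5 and 41 reads, and the call was lost without 35S:TEM1 replicate 1 (-0.82) or WT replicate 1 (-1.24), at both smaller pseudocounts, with no filter and with robust variance. SAUR5 (AT4G34810) had 1.71 and 2.15 in 35S:TEM1 plants against 3.72 and 3.13 in WT plants (-0.59 ± 0.14, adjusted p = 0.0292). That call was lost with no filter and without 35S:TEM1 replicate 1 (-0.49), 35S:TEM1 replicate 2 (-0.70) or WT replicate 1 (-0.50). SAUR3 (AT4G34790) had 6.15 and 4.72 in 35S:TEM1 plants against 13.2 and 7.8 in WT plants and just missed the threshold (-0.81, adjusted p = 0.0523), and it was called lower without WT replicate 2 (-1.15), with equal medians (-0.96) and with quantile normalization (-0.97), but not without WT replicate 1 (-0.46) or 35S:TEM1 replicate 2 (-0.65, adjusted p = 0.189). SAUR2 was listed at 0 in both 35S:TEM1 samples and in WT replicate 2, and at 0.102 in WT replicate 1. The coding sequences of this block were only 51.4% to 61.7% identical to each other, and no 50-base window of their exons was repeated in the genome (0% for each). The neighbouring SAUR49 (AT4G34750), a SAUR locus outside the 54, also fell, with 12.8 and 13.5 in 35S:TEM1 plants against 24.3 and 20 in WT plants (-0.70 ± 0.11, adjusted p = 0.00847), a call lost without 35S:TEM1 replicate 1 (-0.67).

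The SAUR26 to SAUR29 block of chromosome 3 (4 members), in which SAUR26 is known from natural variation in growth at warm temperature, had negative differences in all 3 tested genes. SAUR29 (AT3G03820) had 6.47 and 7.91 in 35S:TEM1 plants against 14.2 and 11.1 in WT plants (-0.73 ± 0.15, adjusted p = 0.0169), a call lost without 35S:TEM1 replicate 1 (-0.61). SAUR26 (AT3G03850) had 1.49 and 1.54 in 35S:TEM1 plants against 2.24 and 2.63 in WT plants (-0.45, adjusted p = 0.0554) and was called lower with equal medians (-0.60), with quantile normalization (-0.64) and without limma's trend. SAUR27 (AT3G03840) had 1.02 and 2.03 in 35S:TEM1 plants against 3.57 and 2.28 in WT plants (-0.65, adjusted p = 0.105). In all of these the genotypes did not overlap. SAUR28 lay under the expression limit, with 0.491 and 0.57 in 35S:TEM1 plants against 1.24 and 1.31 in WT plants.

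The SAUR19 to SAUR24 block of chromosome 5, whose proteins are the known inhibitors of PP2C.D phosphatases, showed no call. All 6 genes were weak, from 0.141 to 4.11 RPKM, and in limma 0 of the 4 tested members passed, with 1 (SAUR20) at an unadjusted p under 0.05. SAUR20 (AT5G18020) had 1.4 and 0.436 in 35S:TEM1 and 2.92 and 1.51 in WT (-0.76, adjusted p = 0.123). SAUR21 (AT5G18030) had 2.26 and 1.14 in 35S:TEM1 plants against 4.11 and 1.64 in WT plants (-0.48, adjusted p = 0.341), with -0.95 without WT replicate 2 (called lower, adjusted p = 0.047), 0.00 without WT replicate 1 and -0.17 without 35S:TEM1 replicate 2. SAUR23 (AT5G18060) had 2.1 and 1.32 in 35S:TEM1 plants against 2.6 and 0.763 in WT plants (0.09, adjusted p = 0.866), and SAUR24 (AT5G18080) had 3.09 and 0.922 in 35S:TEM1 plants against 2.05 and 1.82 in WT plants (-0.07, adjusted p = 0.904). SAUR19 lay under the expression limit with 0.389 and 0.141 in 35S:TEM1 plants against 0.323 and 0.244 in WT plants. In every gene of the block replicate 1 of a genotype was above its replicate 2, so the spread within genotypes was wide. Their coding sequences were 87.3% to 95.2% identical, and up to 18.5% of the 50-base windows (SAUR19) were repeated, so levels of single genes are uncertain.

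SAUR14 to SAUR16 (chromosome 4) had a similar order of replicates. SAUR14 (AT4G38840) had 47.2 and 28.5 in 35S:TEM1 plants against 66.8 and 46.1 in WT plants (-0.58, adjusted p = 0.148), where 35S:TEM1 replicate 1 lay above WT replicate 2. SAUR15 (AT4G38850) had 2.53 and 1.06 in 35S:TEM1 plants against 1.87 and 0.731 in WT plants (0.27, adjusted p = 0.571). In limma 0 of the 3 tested genes of this block passed, with 1 (SAUR16) at an unadjusted p under 0.05.

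SAUR76 and SAUR78, whose proteins are known to interact with ethylene receptors, had lower means in 35S:TEM1 plants, and 1 of the pair passed. SAUR76 (AT5G20820) had 1.76 and 2.34 in 35S:TEM1 plants against 3.87 and 3.4 in WT plants (-0.61 ± 0.15, adjusted p = 0.0285), a call lost with no filter and without 35S:TEM1 replicate 1 (-0.47) or WT replicate 1 (-0.53). SAUR78 (AT1G72430) had 17.2 and 55.8 in 35S:TEM1 and 47.3 and 89.3 in WT. It was the member with the widest spread, replicate 2 being far above replicate 1 in both genotypes, and it did not pass (-1.04 ± 0.54, adjusted p = 0.201). Without 35S:TEM1 replicate 2 it was called lower (-1.86, adjusted p = 0.0232), and without 35S:TEM1 replicate 1 its difference was -0.22.

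Besides SAUR12 and SAUR8, 4 members rose, SAUR53, SAUR54, SAUR71 and SAUR31. SAUR53 (AT1G19840) had 5.79 and 3.89 in 35S:TEM1 plants against 2.42 and 2.24 in WT plants (0.79 ± 0.18, adjusted p = 0.0224). Its neighbour SAUR54 (AT1G19830) had 3.73 and 3.16 in 35S:TEM1 plants against 1.83 and 1.33 in WT plants (0.79 ± 0.15, adjusted p = 0.0149). The coding sequences of this pair were only 46.4% identical, and both were about 2 times their WT means. Both calls were lost without 35S:TEM1 replicate 1 (0.56 and 0.70) and with quantile normalization (0.61 and 0.60), and that of SAUR53 also with no filter and without WT replicate 2 (0.75). Their closest relatives by coding sequence form the pair SAUR52 and SAUR51, elsewhere on chromosome 1. SAUR51 (AT1G75580) had 10.1 and 4.96 in 35S:TEM1 plants against 5.08 and 5.77 in WT plants (0.34, adjusted p = 0.393), its samples overlapping, with 0.80 without 35S:TEM1 replicate 2 (called higher) and -0.11 without 35S:TEM1 replicate 1. SAUR52 lay under the expression limit, between 0.427 and 1.03.

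SAUR71 (AT1G56150), of the SAUR41 subfamily, had 17.1 and 22.3 in 35S:TEM1 plants against 10.3 and 12.1 in WT plants (0.76 ± 0.15, adjusted p = 0.0143), a call lost without 35S:TEM1 replicate 2 (0.58). The other members of that subfamily did not pass or were not tested. SAUR72 (AT3G12830) had 4.6 and 12.3 in 35S:TEM1 plants against 3.57 and 6.79 in WT plants (0.53, adjusted p = 0.391). SAUR41 (AT1G16510), which promotes cell expansion when overexpressed, had 3.3 and 4.54 in 35S:TEM1 plants against 4.98 and 6.18 in WT plants (-0.43, adjusted p = 0.107) and was called lower with quantile normalization (-0.60), its difference being -0.24 without 35S:TEM1 replicate 1. SAUR40 was nearly absent, at 0 to 0.177. SAUR31 (AT4G00880) rose with 32.5 and 32.1 in 35S:TEM1 plants against 22 and 21.7 in WT plants (0.54, adjusted p = 0.00577). It lost this call without 35S:TEM1 replicate 1 (0.53, adjusted p = 0.0514), and 45.9% of its exon lies under AT4G00883 of the opposite strand. Its relative SAUR32 (AT2G46690), whose overexpression is known to abolish the apical hook, had 16 and 9.75 in 35S:TEM1 plants against 13 and 12.6 in WT plants (-0.03, adjusted p = 0.93). SAUR59 (AT3G60690) had 14 and 7.98 in 35S:TEM1 plants against 7.45 and 6.7 in WT plants (0.52, adjusted p = 0.145), with no overlap. Its difference was 0.89 without 35S:TEM1 replicate 2 (called higher) and 0.16 without 35S:TEM1 replicate 1.

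**Figure D4:**
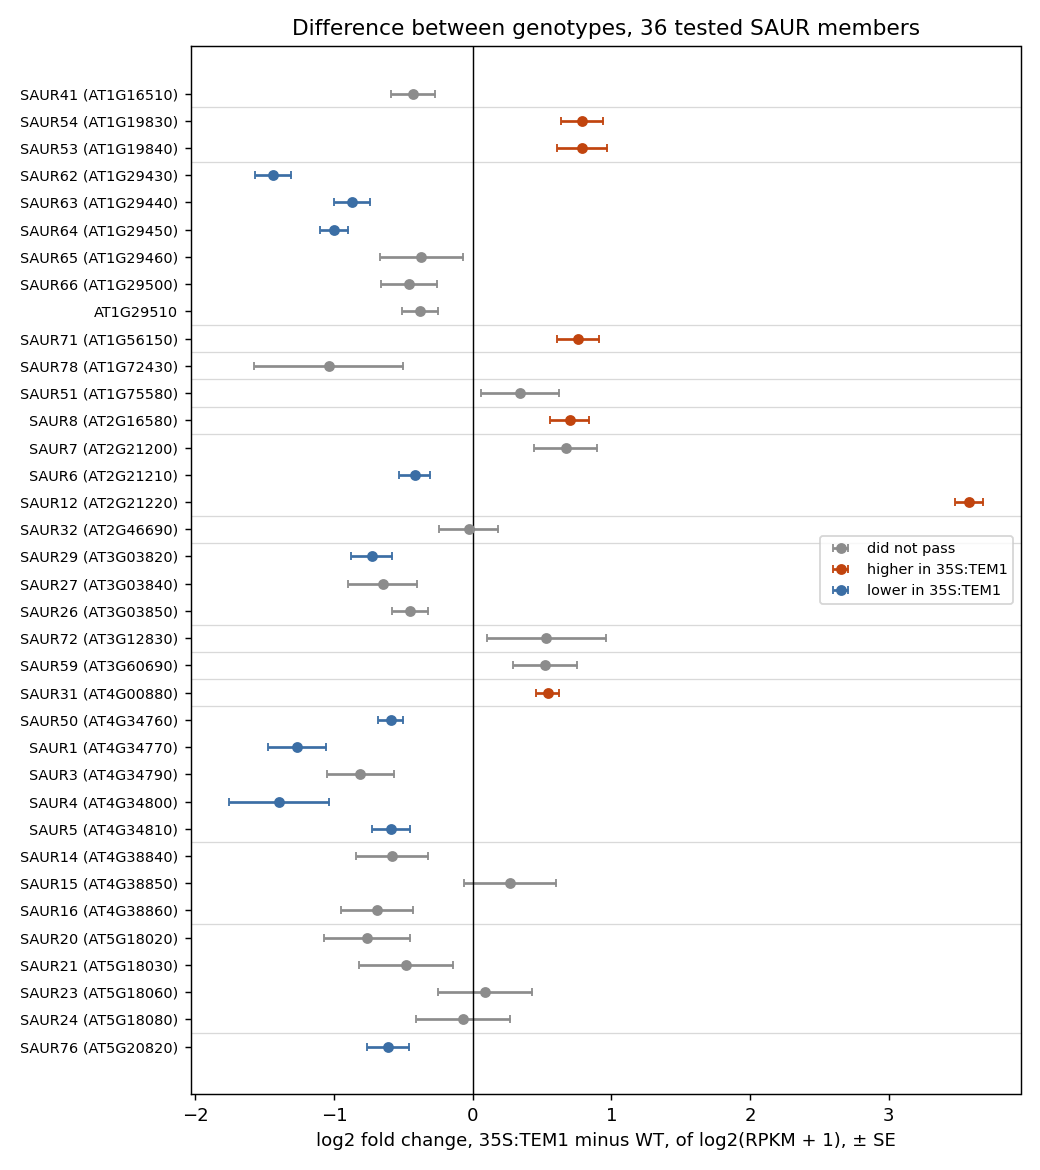
Difference between genotypes (35S:TEM1 minus WT of log2(RPKM + 1), with SE) for the 36 tested SAUR members in order of locus number, coloured by limma call at an adjusted p under 0.05. SAUR12 lies at 3.58, the other higher members between 0.54 and 0.79, and the 10 lower members between -1.44 and -0.42.

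The 18 members under the expression limit comprised 4 listed at 0 in all samples (SAUR11, SAUR13, SAUR25 and SAUR30) and 14 with low values. For the 4, a level of 3 reads corresponded to an RPKM of at most 0.314, so levels well below that could be missed. SAUR9, related to SAUR10, had 0 and 0.041 in 35S:TEM1 (0 and 1 read) against 0.787 and 0.331 in WT (23 and 8 reads). SAUR70 had 0 and 0.0283 in 35S:TEM1 plants (0 and 1 read) against 0.207 and 0.196 in WT plants (10 and 7 reads). SAUR55 had 1.1 and 1.56 in 35S:TEM1 plants against 0.447 and 0.358 in WT plants, and SAUR36, a gene induced in leaf senescence, had 0.957 and 0.947 in 35S:TEM1 plants against 0.375 and 0.582 in WT plants. SAUR22 had 0.914 and 0.295 in 35S:TEM1 plants against 1.55 and 0.934 in WT plants. In each of these genes, and in AT1G29490 and SAUR28, the genotypes did not overlap. When all 24315 loci above 0 were tested, SAUR55 was higher (limma adjusted p = 0.0227). SAUR28, AT1G29490 and SAUR70 were lower (limma adjusted p = 0.0174, 0.0167 and 0.0396), and SAUR36 and SAUR9 did not pass (0.0541 and 0.0549). Over all 24315 loci that fit called 3046 higher and 1144 lower. The genotypes overlapped in SAUR10, with 0.292 and 0 in 35S:TEM1 plants against 0.388 and 0.244 in WT plants, and in SAUR33, with 0.603 and 0.875 in 35S:TEM1 plants against 0.64 and 0.504 in WT plants. SAUR2, SAUR10, SAUR19, SAUR22, SAUR33, SAUR40, SAUR52 and SAUR61 did not pass in that fit either.

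Of the 24 SAUR loci outside the list only 5 reached the expression limit. Of these SAUR49 was lower in limma, 0 were higher and 4 did not pass, with 4 of the 5 at an unadjusted p under 0.05, against 40.4% of all tested genes. Their median difference was -0.68, against 0.12 for all tested genes. In 4 of the 5 both 35S:TEM1 samples lay below both WT samples, against 20.7%. Of these, SAUR77, SAUR42 and SAUR34 had mean RPKM of only 1.03, 1.08 and 1.03. Each of them was under 1 in both 35S:TEM1 samples, so only its WT values brought it over the limit. The limit thus favoured a negative difference in them, and no conclusion is drawn from the 5.

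Genes that act before and after SAUR proteins were examined as a list of 38, of which 32 were tested. Of these 10 were higher, 3 lower and 19 did not pass, with a median of 0.19 against 0.12 for all tested genes. Over all tested genes 18.3% were higher and 7.37% lower, which is the background for these counts and for those of each group below. Of all 17746 tested genes 11695 had a positive difference and 6051 a negative one, the background for the signs below. With either 35S:TEM1 sample left out the counts of the list fell, as did those over all tested genes. Root markers, with sums of 423 and 419 in 35S:TEM1 plants against 298 and 241 in WT plants, were higher in the same samples, and their part in these values was not tested.

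Auxin is perceived by TIR1 and its AFB relatives, F-box proteins that mark Aux/IAA repressors for breakdown. All 6 had positive differences and 3 passed. AFB1 had 18 and 17.6 in 35S:TEM1 plants against 11.2 and 10.2 in WT plants (0.69 ± 0.09, adjusted p = 0.00439). AFB3 (0.40) and AFB5 (0.40) kept the sign but no longer passed with equal medians (0.25 each) or when 35S:TEM1 replicate 1 (0.33 and 0.42), 35S:TEM1 replicate 2 (0.47 and 0.38) or WT replicate 2 (0.33 and 0.31) was left out, nor did AFB3 with quantile normalization (0.30). The ARF factors that activate auxin genes once the repressors are gone had positive differences in 5 of 5, and 3 passed. ARF5 (MONOPTEROS) had 16.9 and 18 in 35S:TEM1 plants against 5.34 and 7.27 in WT plants (1.35 ± 0.14, adjusted p = 0.00207), ARF8 21.3 and 21.2 in 35S:TEM1 plants against 11.1 and 13.4 in WT plants (0.75 ± 0.11), and ARF7 18.5 and 17.4 in 35S:TEM1 plants against 12.1 and 10.8 in WT plants (0.61 ± 0.10), which lost its call without 35S:TEM1 replicate 1 (0.57). ARF6 and ARF19 had 0.22 and 0.32 and did not pass.

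Among other factors known to regulate SAUR genes, PIF3 rose, with 7.25 and 6.9 in 35S:TEM1 plants against 3.99 and 4.09 in WT plants (0.68 ± 0.10), a call lost without 35S:TEM1 replicate 1 (0.65). HBI1, a bHLH factor of cell elongation, fell, with 32.4 and 27.6 in 35S:TEM1 plants against 50.1 and 38.7 in WT plants (-0.54 ± 0.14, adjusted p = 0.0384), which was lost without 35S:TEM1 replicate 1 (-0.66), 35S:TEM1 replicate 2 (-0.43) or WT replicate 1 (-0.36), with no filter and without trend. PIF5, PIF7, BZR1 and BES1 did not pass, and PIF4 lay under the expression limit, at 0.0236 to 0.3.

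Of the 9 PP2C.D phosphatase genes, the targets of SAUR19-type proteins, 2 rose, 1 fell and 6 did not pass. These small counts, and those of the proton pumps, compare with 18.3% higher and 7.37% lower over all tested genes. PP2C.D7 (AT5G66080) had 0.586 and 0.659 in 35S:TEM1 plants against 2.27 and 2.43 in WT plants (-1.05 ± 0.14, adjusted p = 0.00415), well separated and called in each alternative in which it was tested. PP2C.D2 (0.45) and PP2C.D6 (0.44) lost their calls without 35S:TEM1 replicate 1 (0.43 and 0.40) or replicate 2 (0.47 and 0.48). Of 6 tested proton pump genes AHA2, the main pump of roots, rose, with 170 and 155 in 35S:TEM1 plants against 128 and 113 in WT plants (0.42 ± 0.09, adjusted p = 0.0228), and AHA3 fell, with 46.9 and 43 in 35S:TEM1 plants against 57.6 and 62.7 in WT plants (-0.41 ± 0.09, adjusted p = 0.0205). AHA2 lost its call without 35S:TEM1 replicate 1 (0.36) or replicate 2 (0.49) and with equal medians (0.27), and AHA3 without 35S:TEM1 replicate 1 (-0.47), replicate 2 (-0.35) or WT replicate 2 (-0.35). AHA1, the most abundant pump, had 270 and 256 in 35S:TEM1 plants against 265 and 238 in WT plants (0.07, adjusted p = 0.602).

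**Figure D5:**
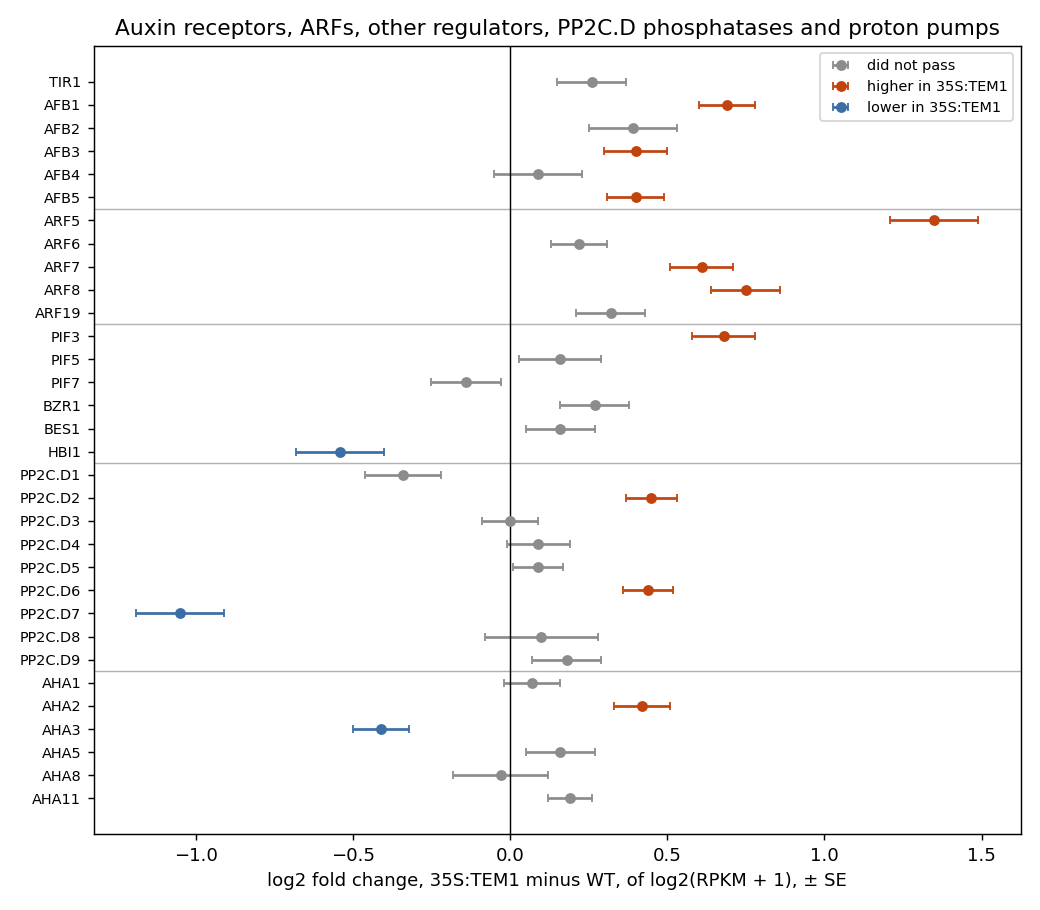
Difference between genotypes (35S:TEM1 minus WT of log2(RPKM + 1), with SE) for the 32 tested auxin receptors, ARF factors, other SAUR regulators, PP2C.D phosphatases and AHA proton pumps, with grey lines between the groups. ARF5 lies highest at 1.35 and PP2C.D7 lowest at -1.05.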

How the data were processed

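Total RNA of pooled whole plants was treated with DNase before library construction, per the labels' protocols. The deposited table gives 1 RPKM value per locus and sample, computed by the authors. Tools named in the submitters' processing notes were STAR, Cuffdiff 2.2.1, bcl2fastq 1.8.4 and FastQC, and the build was TAIR10; their roles are not stated. Which of them counted reads, on what annotation and by strand or not is not known here, so reads of overlapping genes on opposite strands may not have been told apart.

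A gene was tested if its RPKM averaged at least 1 over all 4 samples. The test used log2(RPKM + 1) with limma 3.58.1 (mean-variance trend, 2-sided, Benjamini-Hochberg over 17746 genes) in R 4.3.3. The fit was also run on simulated data with noise independent between samples, which leaves out the shared deviations of same-numbered samples given below. Read totals were estimated from the smallest values, taken as 1 read over the RefSeq exon length (1214 loci supported the estimate). By these estimates 31.2% to 33.4% of values under 50 reads were whole within 0.05, against 10% by chance, so read numbers are approximate and cover counting error only.

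Annotation and sequences came from RefSeq on TAIR10.1, looked up by locus (97.7% of loci matched), and are not tied to the authors' alignments. Identity was computed over global alignments, gaps included. Every member that passed is named with its values, the 14 with the largest differences with an SE. The rule also named members that share a block with one that passed or are among the 5 most abundant. The remaining members are named, beyond that rule, so that all are accounted for. The members and lists were chosen with earlier results of these data known. The alternatives were other pseudocounts (0.1, 0.25), filters, scalings and variance models, a replicate block and leaving out each sample.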

Additional observations from a re-analysis of the deposited data

How the results depend on the processing

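Of the 16 SAUR calls 5 (SAUR12, SAUR62, SAUR63, SAUR64 and SAUR1) held in every alternative in which they were tested. As deposited, 6 members were higher and 10 lower. With a mean RPKM of at least 5 the counts were 3 and 5, with fewer members tested. Leaving out 1 sample gave 2 to 7 higher and 4 to 14 lower, the low ends without 35S:TEM1 replicate 1 and, for lower members, 6 without WT replicate 1. The members' median of -0.44 was -0.52 and -0.50 with pseudocounts of 0.1 and 0.25, -0.37 with no filter, -0.46 at a mean of at least 5, -0.59 with equal medians, -0.61 with quantile normalization and -0.54 to -0.27 with 1 sample left out. Over all genes, 3255 higher and 1308 lower became 1884 and 2388 with equal medians, and 2021 higher with quantile normalization. With 1 sample left out the counts ran from 1331 to 2955 and from 545 to 1417. The auxin pathway list had 3 to 12 higher and 1 to 3 lower members with 1 sample left out. Signs turned in members that had not passed: SAUR23 was -0.06 with equal medians and -0.09 with quantile normalization. With 1 sample left out, SAUR15 ran from -0.12 to 0.66, SAUR23 from -0.42 to 0.61, SAUR24 from -0.61 to 0.48, SAUR32 from -0.36 to 0.30, SAUR51 from -0.11 to 0.80, SAUR65 from -0.80 to 0.07 and SAUR72 from -0.09 to 1.16. The cause was not tested.

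Same-numbered samples deviated together from their group means (Pearson correlation 0.318 across 17746 genes and 0.525 across the 36 tested members, which are not independent), but the labels do not say that the numbers mark a batch and there are only 2. With the replicate block, 9 members were higher and 20 lower, and 13 further members passed. SAUR14, SAUR16, SAUR20, SAUR21 and SAUR78 were among those that were lower. Calls over all 17746 tested genes rose too, from 3255 to 4321 higher and from 1308 to 1801 lower. Depth limits the weakest members, such as SAUR4 and SAUR20, with under 10 estimated reads in a sample.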
